A study of Saccharomyces cerevisiae with 2 samples.

Results

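The mitochondrial DNA (mtDNA) of Saccharomyces cerevisiae carries a small set of protein-coding genes, and this is an account of the 6 of them without introns: ATP8, ATP6, OLI1, VAR1, COX2 and COX3. Their MspI fragments were examined for ligation to nuclear DNA in a genome conformation capture (GCC) experiment. A fragment was taken as a member where the deposited annotation named 1 of these genes as overlapping it. Of the 171 mtDNA fragments in the tables, 8 qualified, with a summed length of 9266 bp or 10.8% of the mtDNA. 7 of the 8 had uniquely mapped pairs with nuclear fragments, out of 132 such mtDNA fragments in glycerol lactate and 131 in galactose.

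In GCC, cells are cross-linked, their DNA is cut and ligated at high dilution, and the junctions are sequenced, so that each count is 1 read pair joining 2 restriction fragments. MspI cuts at CCGG. Strain BY4741 was grown exponentially in glycerol lactate, on which yeast can only respire, or in galactose, on which it respires and ferments. Both cultures were held at 30 °C and cross-linked with 2% formaldehyde for 10 min at an OD600 of 0.6. Each medium has 1 library, which combined 2 biological replicates, so medium and library cannot be told apart, and every test below compares 2 libraries.

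The glycerol lactate library held 3221104 uniquely mapped counts in 342659 fragment pairs, and the galactose library held 2338837 counts in 713131 pairs. Adjacent fragments took 80.3% of the counts in glycerol lactate and 58.0% in galactose. Counts between mtDNA and nuclear fragments outside the rDNA repeats (Mito-nDNA) numbered 83910 in glycerol lactate and 26312 in galactose. Intervals are 95% intervals that cover counting error only, and they treat counts as independent, which PCR copies of 1 ligation are not.

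ATP8, ATP6 and OLI1 encode subunits of the membrane-embedded part of the ATP synthase: subunit 8, subunit a, which lines the proton path, and the subunit of the rotating ring. COX2 and COX3 encode subunits of cytochrome c oxidase, the last enzyme of the respiratory chain, and COX2 holds the copper centre that takes electrons from cytochrome c. VAR1 encodes a protein of the small subunit of the mitochondrial ribosome and is the only member that does not build a respiratory complex. The translation of most of these mRNAs depends on nuclear-encoded proteins that act on 1 or a few of them.

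The files place the genes in the order ATP8, ATP6, OLI1, VAR1, COX2 and COX3 along the mtDNA, all on the plus strand, and the coding coordinates of all 6 were those of the RefSeq table. ATP8 (27666 to 27812) lies on a fragment of 750 bp (27401 to 28150), of which 19.6% is its coding sequence. ATP6 (28487 to 29266) lies on the next fragment, of 1695 bp (28151 to 29845). The fragment of OLI1 (46723 to 46953) is 1150 bp long (46340 to 47489) and 20.1% coding. VAR1 (48901 to 50097) is cut into a fragment of 652 bp with the upstream 17.1% of the gene (48454 to 49105), a piece of 11 bp (49106 to 49116) and a fragment of 999 bp with the downstream 82.0% (49117 to 50115). The COX2 gene (73758 to 74513) fills 31.2% of the longest member fragment, 2421 bp (73215 to 75635), which also names the reading frame Q0255. COX3 (79213 to 80022) fills 51.0% of a fragment of 1588 bp (78920 to 80507). A count belongs to a whole fragment and cannot be placed inside or outside the gene.

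Member fragments had 6595 Mito-nDNA counts in glycerol lactate and 2359 in galactose. Per kb of fragment this was 712 in glycerol lactate and 255 in galactose. All other mtDNA fragments had 1018 counts per kb in glycerol lactate and 315 in galactose. These were shorter on average (163 fragments with 75969 bp in all), and counts per kb fell with length. The per kb values are therefore not a like comparison, and fragments of like length are compared below. The members took 7.86% (7.68 to 8.04) of the Mito-nDNA counts in glycerol lactate and 8.97% (8.63 to 9.32) in galactose. The ratio of these shares, glycerol lactate over galactose, was 0.877 (0.838 to 0.917). Raw counts were higher in glycerol lactate for all 7 member fragments, and the ratio of shares asks whether a fragment gained more or less than mtDNA as a whole, whose Mito-nDNA counts differed 3.19-fold. With all mapped sequences in place of uniquely mapped ones the ratio turned direction, to 1.12.

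The 3 ATP synthase genes together had 2338 counts in glycerol lactate and 864 in galactose. ATP8 had the fewest of any member fragment. It was joined to nuclear DNA 417 times in glycerol lactate, or 556 times per kb, and 175 times in galactose, or 233 times per kb. Its share ratio was 0.747 (0.627 to 0.891, Fisher's exact test, Benjamini-Hochberg adjusted p = 0.00379 over 132 fragments). ATP6, on the neighbouring fragment, had 973 counts in glycerol lactate and 346 in galactose, with a share ratio of 0.882 (0.781 to 0.996) that did not pass after adjustment (adjusted p = 0.0754, Fisher's exact test), but did with distinct pairs in place of summed counts (0.863, adjusted p = 0.0450). OLI1 had 948 counts in glycerol lactate and 343 in galactose. Its share ratio of 0.867 (0.767 to 0.980) passed narrowly (adjusted p = 0.0430, Fisher's exact test), and it did not pass with distinct pairs (adjusted p = 0.0649) or when fragments within 30 kb of a chromosome end were left out (adjusted p = 0.0602).

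For cytochrome c oxidase, COX2 had the most counts of any member fragment, 1435 in glycerol lactate and 585 in galactose. Its share ratio of 0.769 (0.699 to 0.846) was the member change with the smallest adjusted p, 7.60e-07 by Fisher's exact test. COX3 had 1064 counts in glycerol lactate and 373 in galactose, and its share ratio of 0.894 (0.796 to 1.01) did not pass (adjusted p = 0.109, Fisher's exact test), but did with distinct pairs (0.864, adjusted p = 0.0388).

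The ribosomal protein gene VAR1 had the most counts per kb of the 6 genes in both media, though its interval overlapped that of OLI1 in galactose. Its level was 1058 per kb in glycerol lactate and 323 in galactose. All other mtDNA, not matched for length, had 1018 per kb in glycerol lactate and 315 in galactose, close to VAR1. Its upstream fragment had 717 counts (1100 per kb) in glycerol lactate and 240 (368 per kb) in galactose. Its downstream fragment had 1041 counts (1042 per kb) in glycerol lactate and 297 (297 per kb) in galactose. The share ratios were 0.937 (0.810 to 1.08, adjusted p = 0.484, Fisher's exact test) upstream and 1.10 (0.967 to 1.25, adjusted p = 0.226, Fisher's exact test) downstream. Both intervals include 1. VAR1 downstream was the only member fragment with a ratio above 1.

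**Figure D1:**
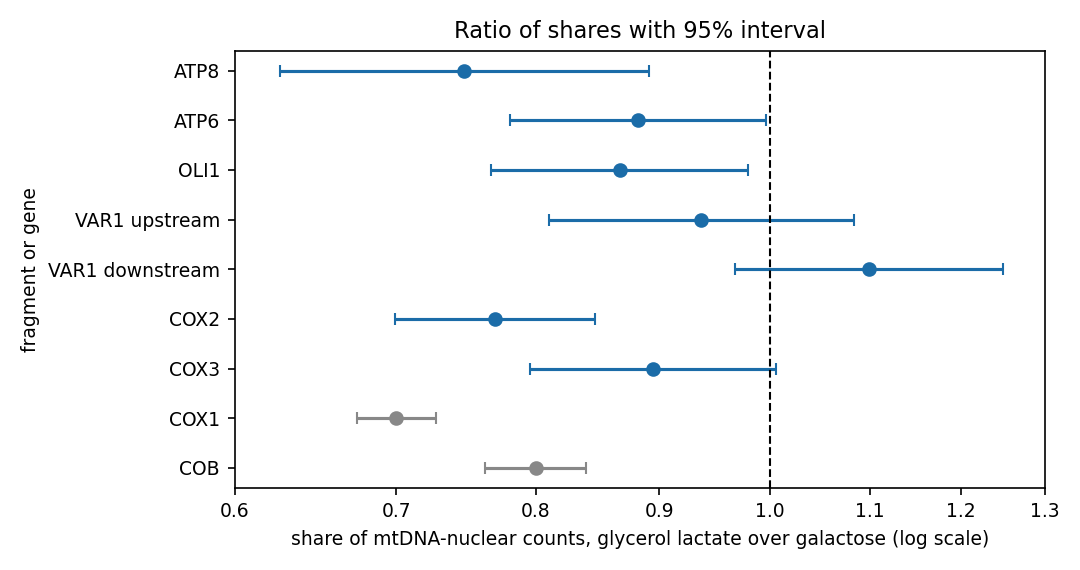
Share of Mito-nDNA counts in glycerol lactate over that in galactose on a log scale, for the 7 member fragments (blue) and for COX1 and COB (grey), with 95% intervals as bars. The intervals of ATP8, ATP6, OLI1, COX2, COX1 and COB lie below 1, and those of COX3 and both VAR1 fragments span 1. They are not adjusted for the number of fragments, and ATP6 did not pass after adjustment.

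In all, 3 of the 7 member fragments had a changed share, and all 3 were lower in glycerol lactate. Across the 132 mtDNA fragments tested, 56.8% changed in either direction, 25.0% were lower and 31.8% were higher. None of the 3 kept its call with all mapped sequences in the same direction: the ratio was then 0.904 for ATP8 and 1.04 for COX2, neither called, and 1.18 for OLI1, called higher, where 119 of 156 mtDNA fragments were called. Of the 32 non-member fragments in the same length range (652 to 2421 bp), 16 changed, 13 of them to a lower share, and their median ratio was 0.940. The intron-containing genes had share ratios below 1 as well, 0.700 (0.674 to 0.727) for the 6 fragments of COX1, the largest subunit of the oxidase, and 0.800 (0.762 to 0.839) for the 7 fragments of COB, cytochrome b. Fragments that name no gene had a ratio of 1.13 (1.11 to 1.14). They were shorter on average (130 fragments with 37616 bp, against 6 with 14589 bp for COX1). These group ratios were not matched for length, so they are not read as a difference between genes and other DNA.

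Per kb, the genes ran in the order VAR1 (1058), OLI1 (824), COX3 (670), COX2 (593), ATP6 (574) and ATP8 (556) in glycerol lactate. There the counting intervals of COX2, ATP6 and ATP8 overlapped, and those of VAR1, OLI1 and COX3 did not overlap with any other member. In galactose the order was VAR1 (323), OLI1 (298), COX2 (242), COX3 (235), ATP8 (233) and ATP6 (204). VAR1 and OLI1 overlapped in galactose, COX2, COX3, ATP8 and ATP6 overlapped with each other, and ATP8 also with OLI1. The counts per kb of 12 other mitochondrial genes in both libraries were compared with each member on the log2 scale. ATP8 was nearest to COX1, at a distance of 0.08, and COX1 was also nearest to COX2. ATP6 was nearest to the intron frame AI5_BETA, COX3 to the intron frame BI4, and OLI1 and VAR1 to SCEI. With 2 libraries this likeness is a description only.

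**Figure D2:**
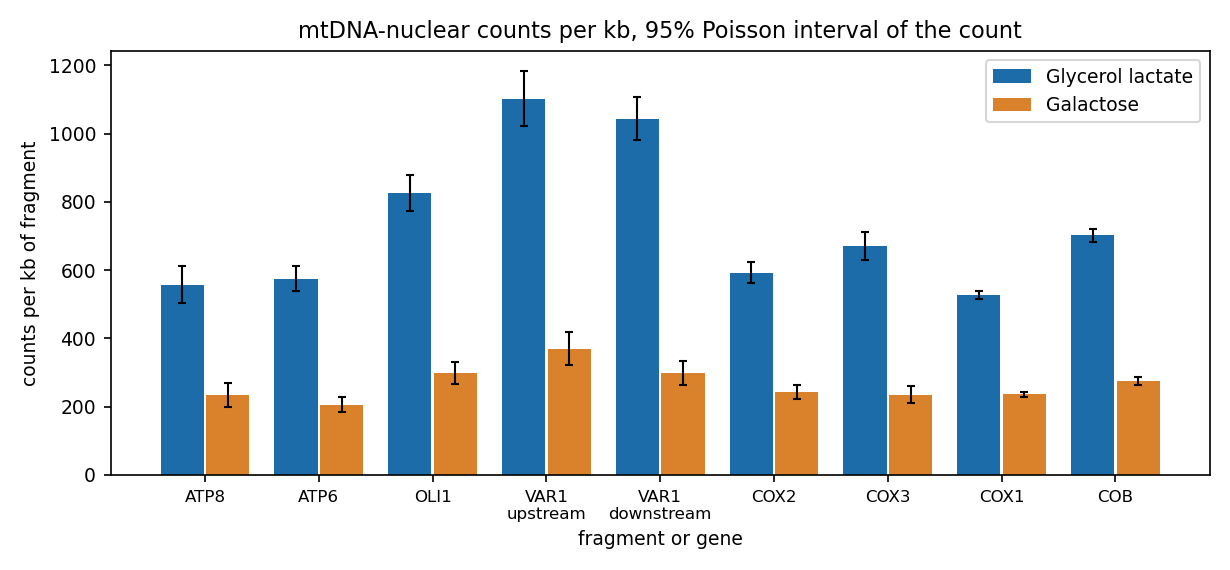
Mito-nDNA counts per kb for the 7 member fragments and for COX1 and COB, with glycerol lactate in blue and galactose in orange, and 95% Poisson intervals as bars. In glycerol lactate VAR1 upstream reaches 1100 counts per kb and ATP8 556, and in galactose they have 368 and 233.

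Counts rose with fragment length over all 132 mtDNA fragments (Spearman's rho 0.762 in glycerol lactate and 0.806 in galactose, given as a description across fragments of the same libraries), and counts per kb fell, so each member was also set beside non-members within 25% of its length. VAR1 downstream had more counts than 19 of 20 such fragments in glycerol lactate and 17 of 20 in galactose. VAR1 upstream exceeded 13 of 18 in glycerol lactate and 17 of 18 in galactose. OLI1 exceeded 12 of 13 in glycerol lactate and 8 of 13 in galactose, and COX3 exceeded 7 of 8 in glycerol lactate and 5 of 8 in galactose. ATP8 was at the other end, above 2 of 24 fragments in glycerol lactate and 8 of 24 in galactose. ATP6 was above 4 of 8 in glycerol lactate and 2 of 8 in galactose, and COX2 had only 3 fragments of like length.

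**Figure D3:**
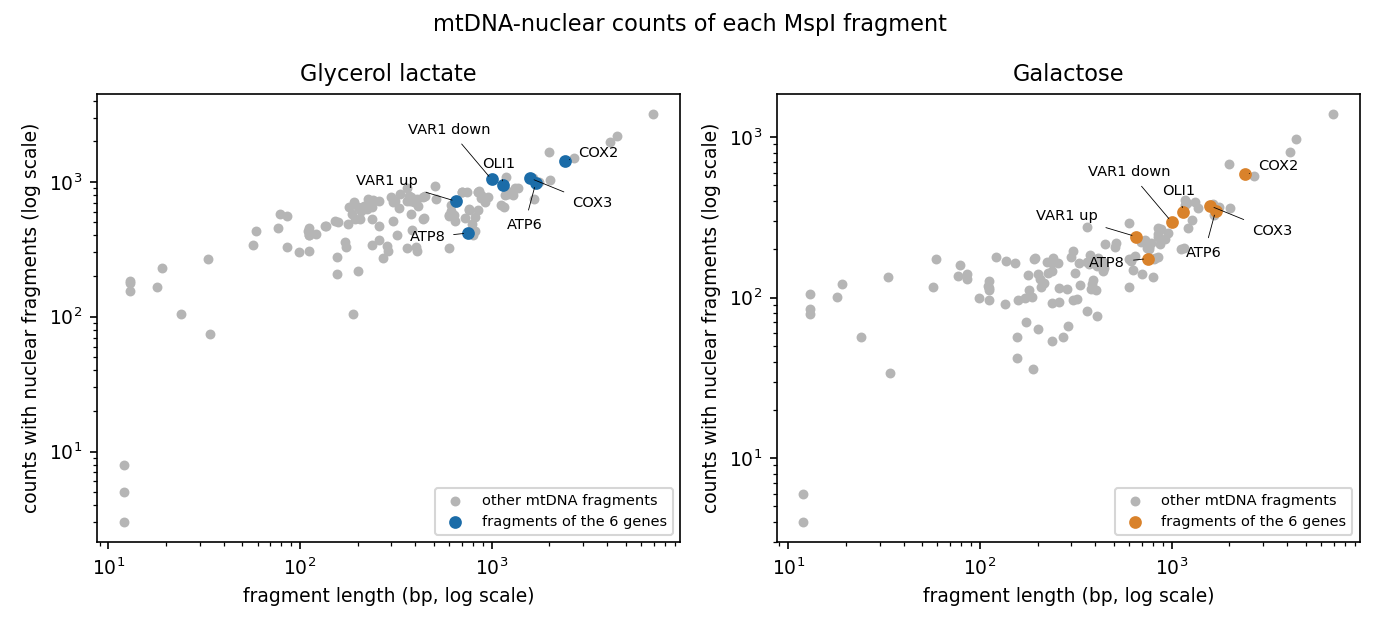
Mito-nDNA counts of each mtDNA fragment against its length, both on log scales, in glycerol lactate (left) and galactose (right), with members coloured and other fragments grey. VAR1 downstream lies high among fragments of its length, and ATP8 lies low in glycerol lactate with 417 counts.

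The rest of each fragment's ligations differed widely between members. ATP8 was joined to an adjacent fragment in 87.9% of its counts in glycerol lactate and 90.1% in galactose. Most of these joined it to ATP6, with 3635 counts in glycerol lactate and 2672 in galactose. Uncut or religated DNA cannot be told apart from contact in counts of adjacent fragments. OLI1 and VAR1 downstream had 0 adjacent counts in the uniquely mapped tables of both media. With all mapped sequences OLI1 had 197 in glycerol lactate and 95 in galactose. The fragment just before VAR1 downstream is the 11 bp piece, which had 0 uniquely mapped counts of any kind. Counts between the VAR1 fragments on its sides, 923 in glycerol lactate and 487 in galactose, are therefore among those with other, non-adjacent mtDNA here and below. Nuclear partners made up 34.5% of all COX3 counts in glycerol lactate and 24.2% in galactose, the highest of the members in glycerol lactate. For ATP8 they made up 8.27% in glycerol lactate and 4.92% in galactose. For these 7 fragments the nuclear percentage was higher in glycerol lactate, as it was for all mtDNA (13.8% in glycerol lactate and 8.42% in galactose). Of nuclear and other non-adjacent mtDNA counts together, nuclear fragments took 33.5% for the members in glycerol lactate and 25.3% in galactose, while for all mtDNA they took 28.1% in glycerol lactate and 19.2% in galactose. The ratio of these percentages, glycerol lactate over galactose, was 1.32 for the members and 1.46 for all mtDNA.

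**Figure D4:**
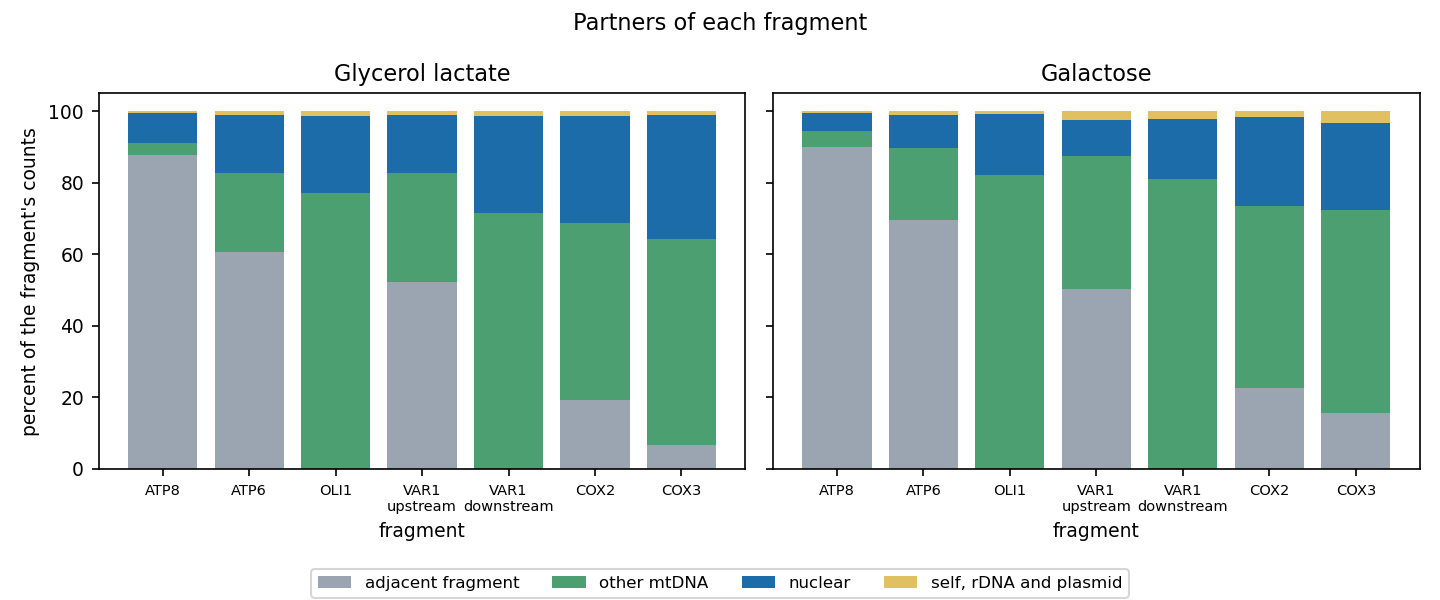
Percentage of each member fragment's uniquely mapped counts joined to adjacent mtDNA, other mtDNA, nuclear DNA or the rest (self, rDNA, plasmid), in glycerol lactate (left) and galactose (right). Adjacent DNA takes 87.9% for ATP8 in glycerol lactate and 0% for OLI1 and VAR1 downstream. Counts between the VAR1 fragments are shown as other mtDNA.

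Among themselves, the members were rarely joined unless they were close. The VAR1 fragments, 11 bp apart, shared 923 counts in glycerol lactate and 487 in galactose. OLI1, 964 bp before VAR1 upstream, shared 13 counts with it in glycerol lactate, against 40 in galactose. With VAR1 downstream OLI1 had 9 counts in glycerol lactate, against 31 in galactose. These were the member pairs with more counts in galactose by the widest margin, although the galactose library held fewer counts in all. COX2 and COX3 shared 14 counts in both media. Apart from ATP8 with ATP6, given above, no other pair of member fragments exceeded 9 counts in either library.

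Pairs seen at least 3 times, the noise cut-off used in the study, numbered 118 for the members in glycerol lactate and 4 in galactose. They made up 9.77% (8.22 to 11.6) of the 1208 Mito-nDNA pairs at the cut-off in glycerol lactate and 5.26% (2.07 to 12.8) of the 76 in galactose. The ratio was 1.86 with an interval of 0.704 to 4.89, which includes 1. The interval lay above 1 with all mapped sequences (2.76, 1.58 to 4.81) and with summed counts of these pairs (2.22, 1.27 to 3.90). With summed counts each pair entered at least 3 times and its counts were treated as independent. That interval is therefore too narrow and does not settle whether the ratio exceeds 1. In glycerol lactate, 103 of the member pairs had a count of 3, 12 had 4 and 3 had 5, and the 4 galactose pairs all had 3. No member reached the highest counts of COX1 (17 in glycerol lactate and 32 in galactose) or COB (29 in glycerol lactate and 13 in galactose).

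COX2 contributed 33 of these pairs in glycerol lactate and 0 in galactose, and COX3 contributed 27 in glycerol lactate and 0 in galactose. ATP6 and OLI1 had 16 each in glycerol lactate, with 0 for ATP6 and 1 for OLI1 in galactose. VAR1 had 12 downstream and 11 upstream in glycerol lactate, with 0 downstream and 3 upstream in galactose. ATP8 had 3 in glycerol lactate and 0 in galactose. As a percentage of the distinct pairs of a fragment, the pairs at the cut-off in glycerol lactate ranged from 0.813% (0.277 to 2.36) for ATP8 to 2.96% (2.04 to 4.28) for COX3, beside 1.60% for all other mtDNA.

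**Figure D5:**
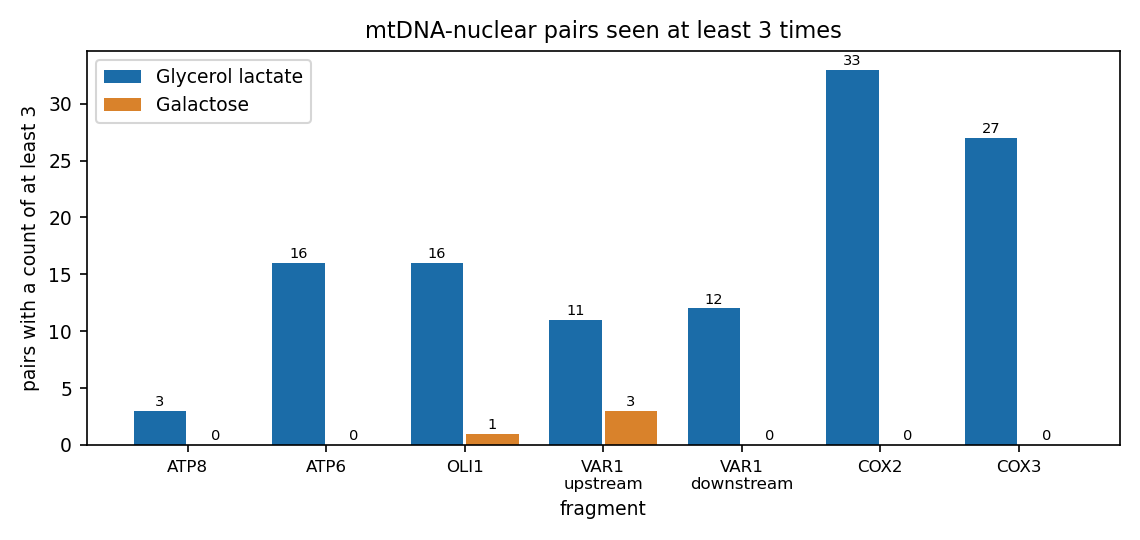
Pairs of each member fragment with nuclear DNA that were seen 3 times or more, in glycerol lactate (blue) and galactose (orange). COX2 and COX3 lead with 33 and 27 pairs in glycerol lactate, and only OLI1 and VAR1 upstream have any in galactose.

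No member pair was at the cut-off in both media. Of the 118 pairs in glycerol lactate, 6 were seen at all in galactose, and none of the 4 galactose pairs was seen in glycerol lactate. Most distinct pairs were seen once: 87.5% of the members' pairs in glycerol lactate and 94.7% in galactose. For all mtDNA the percentages were 88.3% in glycerol lactate and 94.9% in galactose. The same overlap was not computed for all mtDNA, so it is not read as a trait of the members. The 118 pairs went to 118 different nuclear fragments, 0.868% of all 13593, so no nuclear fragment reached the cut-off with more than 1 member. How many would coincide by chance was not computed. Partners at the cut-off were long, with a median of 1520 bp over both media against 569 bp for all nuclear fragments, and 9 of the 122 pairs named no gene at the nuclear end.

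The 3 pairs with a count of 5 were all in glycerol lactate and were not seen in galactose. VAR1 upstream was joined to a 48 bp fragment of MSL5 (chromosome XII, 381238 to 381285), which encodes a splicing factor that binds the branch point. That fragment had 8 counts with all mtDNA in glycerol lactate. COX2 was joined to a fragment of 180 bp on chromosome XV (1043256 to 1043435) that names no gene. COX3 was joined to YIL161W (chromosome IX, 39314 to 39872).

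Among pairs with a count of 4 in glycerol lactate, COX2 was joined to the fragment of TIP20, ROG1 and MRF1 (chromosome VII, 231395 to 235320), with 1 count in galactose. MRF1 encodes the mitochondrial translation release factor, but a count cannot be placed on 1 gene of a fragment that names several. COX3 was joined 4 times in glycerol lactate and 0 times in galactose to a fragment of MSY1, the mitochondrial tyrosyl-tRNA synthetase gene (chromosome XVI, 365761 to 366099). By the tie rule this pair was outside the 3 highest of COX3, and it was named after its values were seen. COX3 had the same counts with fragments of YJU3, YPT6 and IRA2 and with a fragment of DFM1 and other genes. OLI1 was joined 4 times to PEP5 and FUS2 (chromosome XIII, 735356 to 738668) and ATP6 4 times to YMR084W and YMR085W (chromosome XIII, 436794 to 438777), both with 0 counts in galactose.

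VAR1 upstream was joined 4 times in glycerol lactate and 0 times in galactose to YIP4 (chromosome VII, 123667 to 124050). The highest pairs of ATP8 had a count of 3 in glycerol lactate and 0 in galactose. They were with MRC1 and KRR1 (chromosome III, 20471 to 22461), YMR124W (chromosome XIII, 514017 to 515362) and MSS11 (chromosome XIII, 586861 to 587892). VAR1 downstream also peaked at 3, with SUP45, the cytosolic release factor eRF1 (chromosome II, 531699 to 532368), among its partners.

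The 4 galactose pairs had 0 counts in glycerol lactate. OLI1 was joined to a fragment of LAG2, IFM1, TSR4 and YOL024W (chromosome XV, 276445 to 280485), where IFM1 encodes the mitochondrial initiation factor. VAR1 upstream was joined to CDC27, ALG3, PET112 and YBL081W (chromosome II, 67934 to 73441), to ECM18 and YDR124W (chromosome IV, 700748 to 701476) and to a fragment of 70 bp that names no gene (chromosome V, 377804 to 377873). PET112 encodes a subunit of the mitochondrial glutamyl-tRNA amidotransferase, but these counts also cannot be placed on 1 gene of such a fragment. The RSM7 fragment joined to mtDNA 42 times in glycerol lactate and 47 in galactose (chromosome X, 638757 to 640424), the gene of a small-subunit protein of the mitochondrial ribosome, had 1 with OLI1 in glycerol lactate, 1 with COX2 in galactose, and 0 with every other member.

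At all counts, the members were joined to 4587 nuclear fragments in glycerol lactate (33.7% of 13593) and to 2059 in galactose (15.1%). The 802 fragments in both lists were 17.5% of the glycerol lactate list, beside the 15.1% of all nuclear fragments joined in galactose. They were 39.0% of the galactose list, beside the 33.7% of all nuclear fragments joined in glycerol lactate. For all mtDNA, 10527 fragments were in both lists. They were 82.2% of its glycerol lactate list, beside the 79.0% of all nuclear fragments joined to mtDNA in galactose. They were 98.0% of its galactose list, beside the 94.2% joined to mtDNA in glycerol lactate. Most partners were joined to a single member fragment, 3620 in glycerol lactate and 1890 in galactose, and the largest number of member fragments sharing a partner was 5 in glycerol lactate and 3 in galactose.

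Partners followed chromosome length. Across the 16 chromosomes the share of member counts was 0.841 to 1.08 times the share of nuclear length in glycerol lactate and 0.742 to 1.13 times in galactose. The share of length lay inside the counting interval for 14 chromosomes in glycerol lactate and 15 in galactose. Exceptions were chromosome VIII with 4.08% of counts (3.63 to 4.58) and 4.67% of length and chromosome X with 5.47% (4.95 to 6.05) and 6.19% in glycerol lactate, and chromosome III with 1.95% (1.47 to 2.59) and 2.63% in galactose, all below their length.

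Nuclear genes that work with the members were looked up in 6 lists. Of 13 factors for translation or stability of these mRNAs, 12 were found. Across 17 combinations of a factor with its own mRNA's gene there were 4 counts in glycerol lactate and 0 in galactose. These were 2 counts of VAR1 with SOV1, 1 of COX2 with its translational activator PET111, and 1 of ATP8 with AEP3. With all members together the factors had 0.441 counts per kb in glycerol lactate and 0.269 in galactose. All nuclear fragments had 0.547 in glycerol lactate and 0.196 in galactose. No expected number was computed for a factor with its own gene, so these counts are not read as links. A count of 0 allows up to 3. PET54, PET122 and PET494, the activators of COX3 translation, had 0 counts with COX3 in both media.

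The other lists hold partners of the protein products. Of all nuclear fragments, 33.7% were joined to a member in glycerol lactate and 15.1% in galactose, and 0.868% had a pair at the cut-off in glycerol lactate. Nuclear subunits of the oxidase were on 9 fragments, of which 7 were joined to a member in glycerol lactate and 2 in galactose. The median length of these fragments was 3637 bp. Of 42 fragments of oxidase assembly factors, 22 were joined in glycerol lactate and 7 in galactose. Nuclear ATP synthase subunits and inhibitors had 13 of 28 fragments joined in glycerol lactate and 3 of 28 in galactose, and small-subunit proteins of the mitochondrial ribosome had 34 of 67 in glycerol lactate and 17 of 67 in galactose. Per kb, the 6 lists had 0.332 to 0.671 member counts in glycerol lactate and 0.0634 to 0.269 in galactose, beside 0.547 in glycerol lactate and 0.196 in galactose for all nuclear fragments. 3 list genes had a pair at the cut-off, all with a count of 3 in glycerol lactate: COX5A, an oxidase subunit, and COX15, which acts in heme A synthesis, both with VAR1 downstream, and RSM26, a small-subunit ribosomal protein, with COX2.

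The external controls gave no counts with the members. Lambda DNA, added to the galactose sample alone, had 0 counts with them and 13 with all mtDNA, and pUC19, added after ligation to monitor later steps, had 0 with the members in both media.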

How the data were processed

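Cells of 1 strain in 2 media were analysed, with 1 library each. Per the paper's methods the authors placed the reads with SOAP, allowing no mismatch, and built the pairs in Topography. The deposited values are counts of read pairs per pair of MspI fragments, without normalization, in tables of uniquely mapped and of all mapped sequences. Uniquely mapped tables were the main ones.

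Library totals and Mito-nDNA counts took each pair once, and the 46 rDNA fragments were left out of Mito-nDNA. Where counts of mtDNA with mtDNA were summed over several fragments, a pair entered for each of its 2 fragments. Fragments were found by the deposited annotation, and list genes absent under their symbol were looked up in the RefSeq table. Shares of counts were compared between libraries with two-sided Fisher's exact tests (scipy 1.17.1, Python 3.11.15), adjusted over all 132 mtDNA fragments at 0.05. Shares have Wilson intervals, counts Poisson intervals and ratios log-scale intervals. The per-fragment test was tested on simulated data: of 20 fragments changed 1.5-fold among 132, it recovered 89.1%, and 5.65% of its calls were false. The simulated counts were independent and had no variation between libraries or PCR copies. They therefore cannot show how many calls in the real libraries come from such variation. Named pairs were the 3 highest of each member in each medium at a count of at least 3 (ties by the other medium's count, then position), of which part is described, beside factors of the members' own mRNAs and the nearest genes. The MSY1, RSM7 and other list genes were named after their values were seen. The members and lists were chosen with earlier results of these data known.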

Additional observations from a re-analysis of the deposited data

Results flagged for a closer look

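Counts of the members outside the main comparison are given here beside those of all mtDNA, without a test. The 2-micron plasmid, which is nuclear, had 178 counts with the member fragments in glycerol lactate, of 2375 with all mtDNA. In galactose it had 83 of 840. With all mapped sequences, the glycerol lactate library held 2177 counts between members and rDNA, of 34954 between all mtDNA and rDNA. The galactose library held 702 of 11709. The largest count there with a nuclear fragment was 47 in glycerol lactate, for VAR1 upstream, and 79 in galactose, for VAR1 downstream, whereas the uniquely mapped tables gave 5 in glycerol lactate and 3 in galactose. A read in the all mapped tables can fit several places, so these pairs are not tied to 1 locus. The 11 bp piece of VAR1 had nuclear counts in the all mapped tables alone, 3 in glycerol lactate and 0 in galactose.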

How the results depend on the processing

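No paired analysis was possible because each medium has 1 library that combined its replicates, and no replicate could be left out. With all mapped sequences the members' share ratio was 1.12, and it was 1.17 for ATP6, 1.18 for OLI1, 1.22 for VAR1 upstream, 1.04 for COX2 and 1.14 for COX3. There the ratio of pairs at the cut-off was 2.76, past the threshold, and 119 of 156 fragments changed. Against the same fragments' counts with other mtDNA, all mtDNA had a ratio of 1.46, so that ratio and not 1 marks no change. The members had 1.32, VAR1 upstream 1.65 and the other member fragments 1.15 to 1.60, and 121 of 132 fragments differed from 1. An alternative chosen after seeing the data divided each by the rest of mtDNA, which gave 0.895 (0.858 to 0.933) for the members, 0.923 (0.823 to 1.04) for ATP8, no longer called, 0.854 (0.774 to 0.942) for COX3, now called, and 1.13 (0.996 to 1.29) for VAR1 upstream, which alone turned direction, with 62 of 132 fragments changed. For pairs at the cut-off the ratio was 0.894 at a cut-off of 2. It was 2.22 with summed counts, past the threshold, where dependent counts of 1 pair make the test too lenient. At cut-offs of 4 and 5 no member pair was left in galactose and no ratio could be computed. The cause of these differences was not tested. Leaving out the alternative chosen after seeing the data, 33 values for single fragments kept their direction and side of the threshold. Another 6 turned direction, 6 lost their call and 4 gained one. These totals include the values with all mapped sequences and against other mtDNA, where all 6 turns in direction occurred. ATP8 was not called with all mapped sequences (adjusted p = 0.275, Fisher's exact test). Nor was it called when weighted by coding share (adjusted p = 0.282, Fisher's exact test), where its ratio was 0.756. That weighting cut its counts to 19.6%, so the lost call there reflects fewer counts and not a changed ratio. In galactose 4 member pairs reached the cut-off, which leaves wide intervals there.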
